A study of Bos taurus with 4 samples.

Results

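The transcripts of spermatozoa from high-fertile buffalo bulls were described from the 2 arrays labelled high-fertile, of 4 arrays in the series. Both pools came from Murrah breeding bulls, a riverine dairy breed of water buffalo, that were ranked as high-fertile by their conception rate after artificial insemination. Each pool held equal amounts of sperm RNA from 2 bulls, and the sources used here give neither the ages of the bulls nor a treatment. The RNA was extracted from spermatozoa selected on a Percoll gradient, copied from its poly(A) tail, amplified to labelled cRNA and hybridized to an array of 60-base probes designed on cattle sequence, with 1 array per pool. The remaining 2 arrays held low-fertile pools, and no contrast with them was made here. The study's text lists the conception rates of the fertility groups in an order that runs against the group names, so the name high-fertile is used here as the labels give it. The labels list cattle as the organism, which is the species of the array. A pool is a mixture of its bulls, so the spread between bulls cannot be read from it, and neither pool was hybridized more than once.

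Mature spermatozoa are close to silent in transcription. Their nucleus is packed with protamines in place of most histones, most cytoplasm is shed at the end of spermiogenesis, and the RNA that remains is a mixture of whole and broken messages left from the testis. Sperm RNA is therefore scarce, and semen also holds other cells, such as leukocytes and epithelial cells of the tract, that carry far more RNA per cell. A probe's signal on an array depends on its sequence as well as on the amount of its transcript, and here buffalo RNA met cattle probes. The order given below is therefore an order of signal, and a difference in signal between genes is not a measured difference in transcript number. In bulk RNA, fewer cells of a type and less RNA per cell cannot be told apart.

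Each signal was expressed as log2 intensity minus the 75th percentile of its array, called normalized log2 signal below, so that 0 is the 75th percentile. A probe counted as detected where its spots carried the scanner's mark for a signal well above background in pool 1 and in pool 2. Of 51282 probes on the array, 20688 were detected in both pools, which is 40.3%. Pool 1 alone showed 2577 further probes, pool 2 alone 2518, and 25499 carried this mark in neither pool. Among 15342 annotated genes, that is genes with a symbol, 8697 had at least 1 detected probe, which is 56.7%. Detection rose with the number of probes a gene had, from 41.7% of 5485 genes with 1 probe to 73.3% of 4602 genes with 3 or more. The signals were skewed. The detected probes had a median of 0.28, 8112 of them lay under 0, 434 lay over 5, and 115 lay over 8. No spot was saturated, and the negative control spots had medians of -3.24 and -3.23 in pools 1 and 2.

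The highest signals came from probes that share sequence with probes of other genes. A pair of probes was called related when an ungapped alignment of their sequences, in either orientation, scored at least 20 with 1 for a match and -2 for a mismatch. Related to probes of at least 3 other genes were 640 probes, 1.25% of the array, but 22 of the 25 brightest detected probes. The stretches below were picked in turn from the 200 brightest detected probes, of which 53 hold at least 1 of them. Each was the run of 16 bases held by the most probes after those with an earlier stretch were set aside. Each line gives 30 bases of the brightest probe that holds the stretch, 5′ to 3′, with the recurring 16 bases in capitals.
Stretch A, H2BC8 probe at chr23:31776116-31776175, plus strand: tcatgcaTTGGAGAAGGAAATGGcaacccg
Stretch B, TC445578 probe at chr10:89298294-89298353, plus strand: GTGTGTGTGTGTGTGTgtgtgtgtgtatac
Stretch C, MBL2 probe at chr26:6465705-6465764, plus strand: tgaaactCCAATACTTTGGCCACctgatgt
Stretch D, RUBCNL probe at chr12:15394983-15395042, minus strand: tttgaacTGTGGTGTTGGAGAAGactcttg
Stretch E, ACP3 probe at chr1:139462926-139462952, minus strand: gagaaggAATGGCAACCCACTCCtgtgttc
Stretch F, FGF2 probe at chr17:37010622-37010681, plus strand: tggacacGACTGAGCGACTTCACtttgact
Stretch G, FBXO16 probe at chr5:103824099-103824158, minus strand: atttggcaaAACCAATACAATATTGtaaag
Stretch H, MOCS3 probe at chr13:79859400-79859460, plus strand: actgcagCCATGAAATTAAAAGAcgcttac
Positions are those of the array's own annotation on the cattle build Btau_3.1, where the ACP3 position covers 27 bases of its 60-base probe. Whether a probe lies in coding sequence or in an untranslated region was not given in the sources used here.

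Stretch A stood in 13 probes of 9 named genes, among them H2BC8, a core histone H2B, ACP3, the prostatic acid phosphatase, CDNF, a neurotrophic factor, and POLH, a DNA polymerase that copies past lesions. All 13 probes were detected, and their mean signals ran from 8.91 to 11.43. The stretch ran in the same direction in 8 of them, with a median of 10.05, and in the opposite direction in 5, with a median of 9.96. Genes of different function thus gave signals in the same range, in both orientations of the stretch. Stretch E, which overlaps stretch A in sequence, stood in 9 probes with signals from 8.38 to 10.69.

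In stretch E the single probe of the opposite direction gave 10.08, above the median of 9.86 of the other 8. In stretches B, C, D, F, G and H the opposite direction was lower, but the shown direction is that of the brightest probe, so this order is favoured by the choice and is a description only. The 9 probes that hold stretch B, a run of alternating G and T, in the same direction had a median of 9.89, and the 5 that hold its complement, a run of alternating A and C, had a median of 1.33. Over the whole array, 28 probes held the run GTGTGTGTGTGT and all were detected, with a median of 6.54. ACACACACACAC stood in 9 probes, which were also all detected, with a median of 1.57. Stretch C had medians of 11.15 in 5 probes of the shown direction and 7.34 in 3 of the other, and stretch F, with 2 probes against 5, had 10.41 and 7.98. Stretch G stood in 5 probes, 4 of them with a median of 9.91 in the shown direction and 1 at 1.31 in the other. For stretches D and H only 1 probe ran opposite, at 8.70 and 6.88, below the medians of 10.58 and 10.12 of the rest. Cattle and buffalo genomes hold many copies of dispersed repeats, such as BovB elements and the short elements derived from them. No repeat annotation was used here, the stretches were not assigned to a family, and which transcripts gave these signals was not tested.

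The share of very bright probes was higher among probes related to 3 or more other genes. Of 47635 probes with no related probe, 25 were detected with a signal over 8, which is 0.0525%. Among probes related to 3 to 4 other genes this held for 21 of 272, or 7.72%, and among those related to 5 to 9 other genes for 35 of 215, or 16.3%. At 10 or more other genes it was 21 of 153, or 13.7%. The median GC content was 45% for probes with no related probe and for those related to 1 to 2 other genes, and 43.3% in the 3 classes above. Read from the bright end, related probes made up 44 of the brightest 50, 71 of the brightest 100, 89 of the brightest 200 and 116 of the brightest 500, against 401 of all 20688 detected probes, or 1.94%. The measure sees only relations among the probes of the array itself, and 25 of the 115 detected probes over 8 had no related probe.

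**Figure D1:**
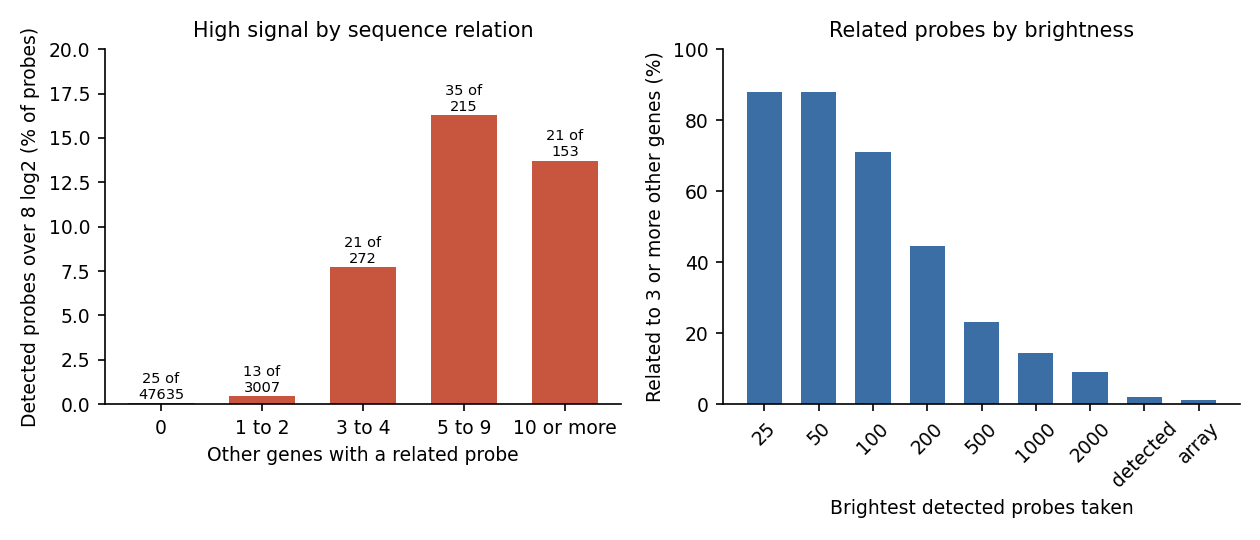
Left, percentage of probes that were detected with a normalized log2 signal over 8, by the number of other genes with a related probe, with counts above the bars. Right, percentage of probes related to 3 or more other genes among the brightest detected probes taken, all detected probes and the whole array. The right-hand share falls from 88% of the brightest 25 to 1.94% of all detected probes.

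Ranked by the brightest detected probe of each gene, POLR2K came first, which encodes a small subunit shared by the nuclear RNA polymerases. Its signal was 12.10 in pool 1 and 11.78 in pool 2 (mean 11.94 ± 0.22, SD, n = 2 pools). SLC5A12, a sodium-coupled transporter of lactate and other monocarboxylates, gave 12.03 and 11.62. CWC25, a splicing factor, gave 11.65 and 11.99. These signals lie close to the top of the scale, and the order of POLR2K and CWC25 was reversed between the pools. RUBCNL, a regulator of autophagy, gave 11.72 and 11.69, and the zinc finger gene ZNF266 gave 11.73 and 11.67. TSPYL4 followed with 11.55 and 11.58.

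Among the other genes of the 25, TLR2, the receptor for bacterial lipoproteins, gave 11.57 and 11.47, and MBL2, the mannose-binding lectin of the complement system, gave 11.36 and 11.35. FGF2, a fibroblast growth factor, gave 10.63 and 10.24, and IL1RL1, the receptor for interleukin 33, gave 10.51 and 10.35. S1PR2, a receptor for sphingosine 1-phosphate, gave 10.69 and 10.76. These 5 are described because their roles are well known, and the bright probes of all but TLR2 were related to 3 or more other genes. The other members were H2BC8, MTMR2, ZNF33B, IPO5, CDNF, HERC1, ACP3, FBXO16, SFN, POLH, C3H1orf87, TNS4, MOCS3 and ACOT11. Over the 25 genes the signals ran from 10.44 to 12.10 in pool 1 and from 10.24 to 11.99 in pool 2. The pools differed by a median of 0.14 over these genes and by 0.41 at most, so most neighbours in the order did not differ beyond the spread between the pools. IL1RL1, the last of the 25, had a mean of 10.43, and GTF2H5, a subunit of the repair and transcription factor TFIIH and the next gene, had 10.39.

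Most of these genes were bright in 1 probe or a few probes and dim in others. Their brightest probe was related to probes of 3 or more other genes in 22 of the 25. The array holds more than 1 probe for 22 of the 25 genes, and 15 of these have a probe that was not detected and 17 a probe below the 75th percentile. The second probe of POLR2K gave 0.05 and 0.10, and its dimmest was not detected, at -3.16 and -1.16. TLR2 gave -0.86 and -0.61 on its second probe, and its other 2 probes were not detected. All 4 other probes of FGF2 were not detected, with means between -3.32 and -3.01. MBL2 had 2 further probes, at means of -0.91 and -2.89, and neither was detected.

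Relation in sequence did not mark every such case. HERC1, which encodes a giant ubiquitin ligase, gave a mean of 11.01 (SD 0.0058, n = 2 pools) on a probe with no related probe on the array. Its other 4 probes were not detected, with means from -3.29 to -0.53. ACOT11, an acyl-CoA thioesterase, had all 7 of its probes detected, with means from 6.18 to 10.49. Only its probe at 8.02 had no related probe, and 1 of the 7 was related to 3 other genes. The array's annotation places the probe at 8.02 on chromosome 3 and the brightest on chromosome 2. ZNF33B had 3 detected probes at 4.80, 7.34 and 11.23. FBXO16, IL1RL1, SLC5A12, SFN and TNS4 also had all of their 2 or 3 probes detected, with the dimmest between -0.48 and 0.60.

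**Figure D2:**
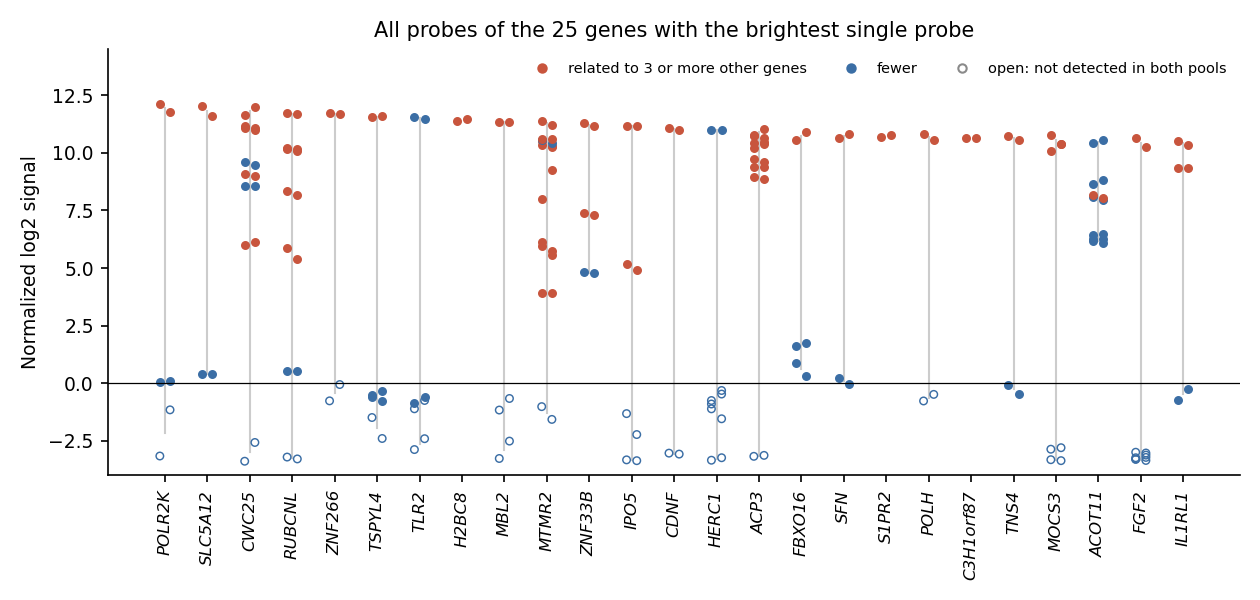
All probes of the 25 genes ranked highest by their brightest detected probe, as normalized log2 signal with the left point for pool 1 and the right point for pool 2. Filled points are detected probes, red points are related to 3 or more other genes, and grey lines span the probe means. Most genes have a red pair over 10 and a blue or open pair near or below 0, and ACOT11 has all 7 probes over 6.

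Without the related probes TLR2, HERC1, MTMR2 and ACOT11 led, and CWC25 also stayed among the 25, through other probes or because their bright probe had fewer than 3 related genes. The other 20 genes were new. Among them were RHBDL2, a rhomboid protease (10.18 and 9.89), TMCO5B (9.61 and 9.67) and PGM2, a phosphoglucomutase (9.35 and 9.51). CETN2, a centrin of the centriole, was among them with 8.01 and 7.97 on 1 of its 3 probes, which holds the run of stretch B. U2AF2, a splicing factor that binds the polypyrimidine tract, gave 7.85 and 7.67 on the brightest of its 4 probes and -0.65 on the lowest. Not all of these genes were dim in their other probes. PMEPA1, for example, had 2 probes at 6.36 and 9.22.

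A ranking by the dimmest probe was led by ACOT11 (6.18), ZNF33B (4.80), PGM2 (4.49) and ZNF280BY (4.11), and it held more ribosomal protein genes. It asks which genes were bright in every probe, and it took the 4602 annotated genes with 3 or more probes. All probes were detected for 381 of these genes, some for 2990 and none for 1231. Of the 25 genes with the brightest dimmest probe, 8 encode ribosomal proteins, against 0 of the 25 by brightest probe, and 2 genes, ACOT11 and ZNF33B, stood in both. RPL27A, the fifth gene, led the ribosomal proteins, with 3 probes from 3.52 to 4.54. RPL23A had 4 probes from 3.44 upward with a median of 3.95, and RPS4X had 5 probes from 2.91 to 4.23. RPS15A, RPL39, RPL17, RPL12 and RPL10 were the others.

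The other genes of this ranking had various roles. RAN, the small GTPase that drives nuclear transport, had 5 probes from 3.29 to 5.27. COX7A2 and COX7C, subunits of cytochrome c oxidase, had dimmest probes at 2.41 and 2.02, and ATP5MC1, the ring subunit of the ATP synthase, had 2.27. PGM2 had 3 probes from 4.49 to 9.43. NOP56, a protein of box C/D nucleolar particles, ran from 2.03 to 3.11 over 4 probes. LAMTOR1, an anchor of the Ragulator complex on lysosomes, had 4 probes within 2.19 to 2.27, the closest agreement of the 25. WC1, a scavenger receptor of gamma-delta T cells, had 4 probes from 2.95 to 3.32, and the related receptor gene CD163L1 had 6 from 2.05 to 3.52. Both genes were chosen after their values were seen, and 1 probe of WC1 and 2 of CD163L1 were related to 3 or more other genes. ZNF280B, H2B, PAG5, BASP1 and ILVBL were the remaining genes. This ranking was chosen after the data were seen, and it favours genes with fewer probes among those it takes.

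**Figure D3:**
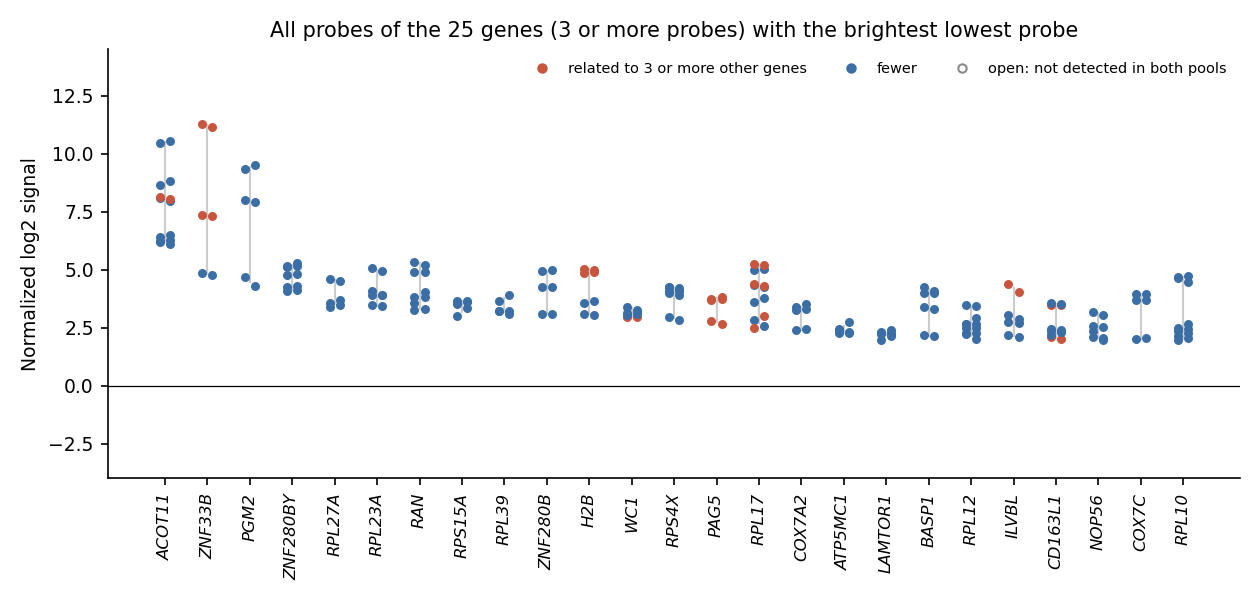
All probes of the 25 annotated genes with 3 or more probes whose dimmest probe was brightest, drawn as normalized log2 signal with pool 1 left and pool 2 right and with the same colours. All points are filled, since every probe of these genes was detected, and the dimmest probes run from 6.18 in ACOT11 to 2.01 in RPL10.

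Genes of the cytosolic ribosome had the highest median signals of the 30 lists. Across both cytosolic subunits, 76 of 79 genes were detected (96.2%, against 56.7% of all annotated genes). Of the 79, 54 (68.4%) stood among the brightest 10% of annotated genes, a class that holds 9.98% of all. The threshold of that class was 1.98, with RARRES2 just inside and RNF182 just outside it. The large subunit had 44 of 46 genes detected and medians of 2.73 and 2.67 in pools 1 and 2, and the small subunit 32 of 33 with a median over both pools of 3.04. RPLP2, an acidic stalk protein, gave 5.73 and 5.52, RPL17 gave 5.22 and 5.18, and RPL6 gave 5.13 and 5.11. RPS6, a target of S6 kinase, gave 4.97 and 5.10. Counted by probes, 80.8% of the large-subunit and 80.0% of the small-subunit probes were detected, against 38.4% of the probes of all annotated genes. With 3 or more probes, 27 of 57 ribosomal protein genes (47.4%) had all probes detected, against 8.28% of all such genes. RPL34, RPL22 and RPS9 were not detected. Processed copies of ribosomal protein genes are common in mammalian genomes, and probes may not separate them.

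Other genes of translation and energy supply were detected more moderately. Their shares stand beside 56.7% of all annotated genes and 73.3% of those with 3 or more probes. Translation elongation and initiation factors had 44 of 62 genes detected (71.0%). EEF1A1, which brings aminoacyl-tRNA to the ribosome, was detected with 8 of 9 probes, at means from 1.75 to 3.59. Nuclear genes of respiratory complexes I to V had 64 of 86 detected (74.4%). NDUFA6 of complex I gave 4.88 and 4.89 on 1 of 2 probes, with the other at a mean of -1.36. COX6B2, a testis form of a cytochrome c oxidase subunit, gave 4.13 and 4.09 on the brighter of 2 probes, with the other at 0.61. Glycolytic enzymes had 19 of 25 detected (76.0%), led by PGAM1 at 3.91 and 3.87. Actins, tubulins and related genes had 32 of 39 detected (82.1%), led by TUBB4B, a beta tubulin of cilia and flagella, at 3.90 and 3.91. By probes the shares were 52.5% of 181 for the factors of translation and 52.4% of 206 for the respiratory complexes. Glycolytic enzymes had 58.7% of 75 probes detected and actins and tubulins 63.0% of 100, against 38.4% over all annotated genes. Mitochondrial ribosomal proteins, by contrast, had 42 of 77 detected (54.5%), and proteasome subunits 27 of 47 (57.4%), both near the share of all genes.

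The mitochondrial genome gave signal mainly from its ribosomal RNAs. Of 9 probes on the plus strand of the mitochondrial rRNA genes, 7 were detected, with a median of 2.33 and a highest mean of 3.21. On the minus strand of the same genes 3 of 11 probes were detected, with a median of -2.82. Probes for mitochondrial protein-coding messages on the plus strand were detected in 6 of 26 cases, with a median of -1.33, and in 0 of 4 on the minus strand. The share over the probes of all annotated genes was 38.4%. By gene, 5 of 11 mitochondrially encoded genes were detected (45.5%, against 56.7% of all annotated genes), led by ND5 of complex I at -0.10 and -0.01.

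The markers of spermatozoa were all on the array, and 8 of 20 were detected (40.0%, against 56.7% of all annotated genes), with medians of -1.05 and -1.18. They have 32 probes in all, fewer per gene than genes at large, and the share detected among all genes with 1 probe was 41.7%. By probes the share was 34.4%, against 38.4%, so the gap to genes at large was small on that count and was not tested. ODF1, a protein of the outer dense fibres of the tail, gave 2.96 and 3.06, and ACR, the acrosin protease of the acrosome, gave 2.80 and 2.82. ACRBP, which binds proacrosin, gave 0.70 and 0.67, and CATSPER1, a pore subunit of the sperm calcium channel, gave 0.90 and 0.11. ODF2 and GAPDHS, the sperm form of the glycolytic dehydrogenase, were detected below 0. AKAP4, the main protein of the fibrous sheath, was not detected, at -1.47 and -1.69. LDHC, the germ-cell lactate dehydrogenase, was not detected either, at -3.40 and -3.29, and nor were PGK2, SMCP, CABYR, SPA17, CRISP2, TSSK6, HSPA1L and SPATA18. Most of these genes have 1 probe, so a failed probe and a missing transcript cannot be told apart.

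Of 5 genes for protamines and transition proteins, which package the sperm nucleus, 2 were detected (40.0%, against 56.7% of all annotated genes), and by probes 3 of 12, against 38.4%. The median of the list was 0.34, which is 0.83 above that of all annotated genes, but the pools split, with medians of 0.35 and -0.91, and without pool 1 the list lay at -0.45 relative to all genes. PRM1, the protamine that replaces most histones, was detected with both of its probes, at 0.35 and 0.32 and at 0.18 and 0.36. TNP1, a transition protein that precedes it, gave 0.50 and 0.84 on 1 of 3 probes. PRM2, PRM3 and TNP2 were not detected. The brightest PRM2 probe gave 2.29 in pool 1 and -1.34 in pool 2, the widest gap between the pools among these genes. Of the histone variants 9 of 10 were detected (90%, and 58.6% of their probes), with medians of 1.30 and 0.86. The linker histone gene H1-10 led with 6.81 and 6.51 on 1 of 2 probes, which has a GC content of 86.7%, and H3-3A, a replacement histone H3.3 gene, followed with 5.37 and 5.26 on the brightest of 4 probes.

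Lists of tail, acrosome and germline genes lay below the 56.7% of all annotated genes, but some of them hold few probes per gene (33 for 24 flagellar genes), and all genes with 1 probe were detected at 41.7%. Flagellar sheath and outer dense fibre genes had 8 of 24 detected (33.3%), axoneme genes 15 of 41 (36.6%) and genes of the acrosome and zona binding 10 of 25 (40.0%). The axoneme list was led by DYNLL1, a dynein light chain used in many cells, at 2.77 and 2.70. By probes the shares were 27.3% for the flagellar, 30.7% for the axoneme, 31.0% for the acrosome and 28.7% for the germline RNA-binding list, against 38.4%. DKKL1, an acrosomal protein, gave 2.65 and 2.56. Germline RNA-binding proteins had 15 of 34 detected (44.1%), led by CPEB1, which controls the poly(A) tail of stored messages, at 3.40 and 3.38, and YBX1 at 3.18 and 3.17. Sperm ion channels had 8 of 14 detected (57.1%), with EFCAB9, a partner of the sperm calcium channel, at 1.16 and 1.09. Markers of spermatogonia and spermatocytes were lowest of all lists, with 2 of 16 detected (12.5%) and medians of -1.61 and -2.06. With either pool left out the share was 31.2%. SYCE1, of the synaptonemal complex, gave -0.05 and 0.02.

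Shares detected for markers of other cell types are given beside the 56.7% of all annotated genes and 38.4% of their probes. No difference from the markers of spermatozoa was tested, and the lists hold unequal numbers of probes, with 34 for 14 testis somatic, 41 for 17 epithelial and 60 for 25 leukocyte genes against 32 for 20 sperm genes. Testis somatic cell markers had 14 of 14 genes detected, with medians of 0.73 and 0.94, and AMH, the hormone of Sertoli cells, led with 2.81 and 3.39 on a probe with a GC content of 76.7%. Epithelial markers had 14 of 17 detected (82.4%), with medians of 0.27 and 0.22, led by KRT19 at 3.59 and 3.49, and CDH1, EPCAM and KRT7 were not detected. Leukocyte markers had 20 of 25 detected (80.0%), with medians of 0.45 and 0.53, and CD3E, CD48, CD8A, CORO1A and SPI1 were not detected. Red cell markers had 5 of 11 detected (45.5%), and HBB and ALAS2 were not among them. By probes the shares were 58.8% for the testis somatic, 56.1% for the epithelial, 51.7% for the leukocyte and 33.3% for the red cell markers. The part of such cells in these signals was not tested.

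In the leukocyte list, which does not hold WC1 or CD163L1, the 4 brightest genes were bright in 1 probe only. LYZ, lysozyme, gave 8.53 and 8.39 on 1 probe and -3.44 and -3.45 on the other. PTPRC, the common leukocyte antigen, gave 7.57 and 7.58 on a probe related to 5 other genes, while its other probes gave means of 0.97, -2.90 and -3.20. CD3D, of the T cell receptor complex, gave 7.09 and 7.19 on 1 of 3 probes, with the others not detected. CD4 gave 4.89 and 5.11, and 3 of its 5 probes were not detected.

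**Figure D4:**
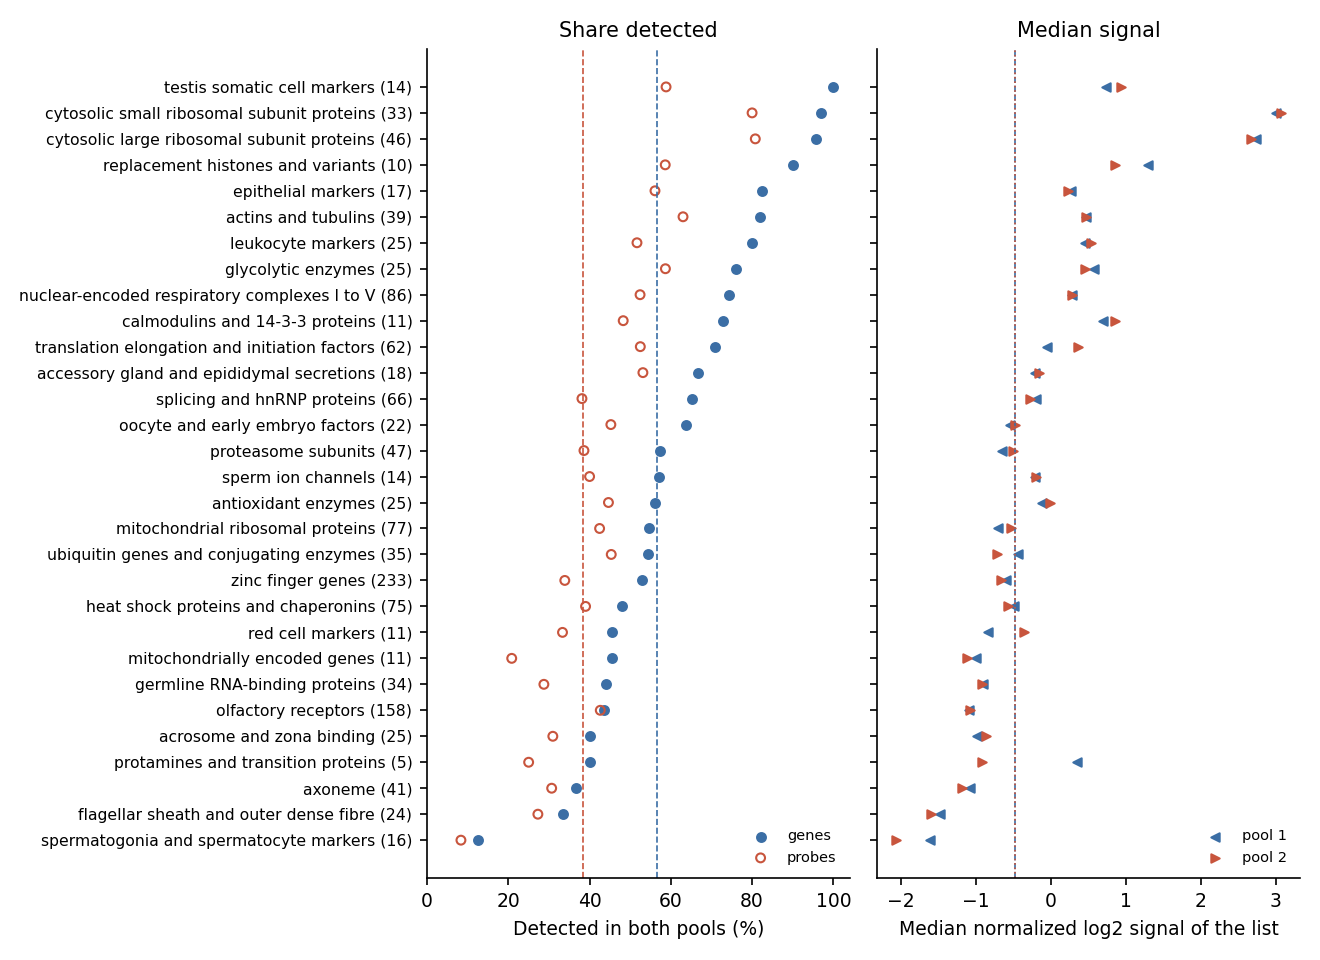
Percentage of each list detected in both pools, by genes (filled) and by probes (open), and the median normalized log2 signal of the list in each pool, with the number of genes on the array in brackets. Dashed lines mark all annotated genes, at 56.7% of genes and 38.4% of probes. The cytosolic ribosomal protein lists lie highest in signal and the spermatogonia and spermatocyte markers lowest in both panels.

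Base composition of the probe moved with detection. Below 35% GC, 6.50% of probes were detected, and at 70% GC or more 84.2% were. Across 51257 probes the signal had a Spearman's rho of 0.469 with GC content, as a description over probes that share arrays. The median GC content was 45% for all annotated genes, 44.2% and 45% for the large and small ribosomal subunit lists, and 51.7% for the epithelial markers. With signals corrected for GC content, the difference of a list's median from that of all genes moved from 3.21 to 3.65 for the large and from 3.53 to 3.91 for the small ribosomal subunit. It moved from 0.72 to 0.18 for the epithelial markers, from 0.95 to 0.92 for the leukocyte markers and from 1.22 to 0.85 for the testis somatic markers. The sign changed for sperm ion channels (0.33 to -0.19), proteasome subunits (-0.08 to 0.15), ubiquitin genes (-0.23 to 0.51) and heat shock proteins (-0.17 to 0.03).

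The pools agreed closely over the detected probes. Pearson's r was 0.973 and Spearman's rho 0.941 across 20688 probes, which are not independent replicates. The absolute difference between pools had a median of 0.16 and a 95th percentile of 0.59. The median SD over the 2 pools was 0.12 across all detected probes, after the spots of a probe were averaged. Between single spots of the same probe on the same array it was 0.16 in pool 1 and 0.17 in pool 2. These spot values come from 5088 and 5087 detected probes with more than 1 spot. The SD between pools and the SD between spots thus rest on unlike probes and numbers of values and cannot be compared directly. In the brighter 10344 detected probes r was 0.968 and 1.102% of probes differed by over 1, and in the dimmer 10344 r was 0.658 and 0.445% differed by over 1. Among the 115 detected probes over 8 this share was 1.74%, or 2 probes. Brighter classes of detected probes thus had both the higher correlation and the larger share of probes that differed by over 1. These classes hold only probes detected in both pools, and among probes detected in neither pool 14.4% differed by over 1. For the 401 detected probes related to 3 or more other genes r was 0.997. Of the 100 brightest probes of each pool 94 were shared, and of the 1000 brightest 934.

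**Figure D5:**
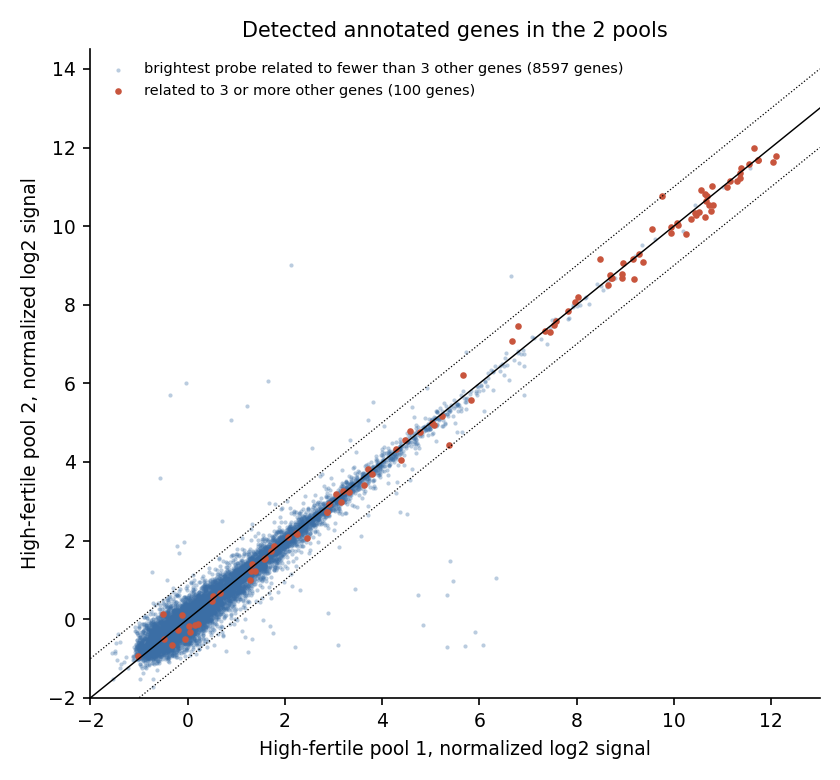
Normalized log2 signal in pool 1 against pool 2 for the 8697 detected annotated genes, each by its brightest detected probe. Red points are genes whose probe is related to 3 or more other genes, the solid line marks equal signals and the dotted lines a difference of 1. Few genes lie outside the dotted lines, 31 of them higher in pool 2 and 48 higher in pool 1.

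A difference over 1 between the pools was seen in 160 probes, 0.773% of those detected in both pools, and in 4926 probes, 9.61%, of all 51257 with a value in both. Of these, 3682 carried the mark for a signal well above background in neither pool. Each pool is 1 array, so none of these differences has a replicate check. Of the 160 probes, 95 were higher in pool 1 and 65 in pool 2. Among annotated genes 79 passed it, with EIF5 just inside at 1.0005 and FSHR just outside at -0.9997. The largest difference was that of DHRS7B, a dehydrogenase, with 2.13 in pool 1 and 9.02 in pool 2. PMPCB, a subunit of the mitochondrial processing peptidase, gave -0.36 and 5.70. SEMA4F gave -0.03 and 6.002, SLURP1 gave 1.64 and 6.07, and SNX21 gave 1.21 and 5.42. In the other direction SLC11A2, a transporter of divalent metals, gave 6.07 and -0.67. DOC2A gave 5.70 and -0.69, WDR1, a partner of cofilin on actin, gave 5.91 and -0.31, MTFMT, the formyltransferase of mitochondrial initiator tRNA, gave 5.33 and -0.71, and METTL15 gave 6.33 and 1.05.

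The other probes of these genes did not repeat the differences. A second detected probe existed for 8 of the 10 genes, 16 probes in all, and the largest absolute difference among them was 0.82, for DHRS7B. SLC11A2 had 4 other detected probes, none with a difference over 0.47. SNX21 had 4 others, with a largest difference of 0.20 in size. Of the 10 probes with the large differences, 9 were printed in a single spot, and SLURP1 was printed in 2. Over all detected probes, 112 of 15599 with a single spot and 48 of 5089 with more spots differed by over 1.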

How the data were processed

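Sperm RNA pools of high-fertile bulls were hybridized to 1-colour arrays, 1 array per pool and 2 bulls per pool. For each array the authors deposited the output of the scanner, written by Agilent Feature Extraction 11.5.1.1, whose processed signal is a background-subtracted intensity. They also deposited a table of log2 values shifted to the 75th percentile of each array, used here as an alternative. No file had columns of other samples.

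Control spots and spots marked as outliers (10 and 29) were left out, log2 processed signals of a probe's spots were averaged, and the 75th percentile (an intensity of 36.7 in pool 1 and 37.1 in pool 2) was subtracted. From 61657 spots this gave 51282 probes. A probe was detected when at least 0.5 of its spots carried the well-above-background mark on each array. A gene took its brightest detected probe, or its brightest probe where none was detected. Gene names of 35556 probes were matched to a RefSeq gene table of the build ARS-UCD2.0, used for symbols only. The related-probe search started from shared runs of 12 bases and was tested on simulated sequences.

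Named were the 25 genes with the highest mean signal, up to 3 of the brightest detected members of each list, marker sets by count, the 5 genes with the largest pool difference in each direction, and the genes beside each threshold. Genes named with all their probes, members of the other rankings, further list members and undetected members were chosen after their values were seen. The members and lists were chosen with earlier results of these data known.

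No test was made, since 1 group of 2 pools is described. The number of arrays limits the precision. Values are given for both pools, and SD is over n = 2 pools. Alternatives were the mark, background correction (normexp with offset 50), normalization, the deposited table, the probe of a gene, GC content, outlier spots and each pool left out. The removal of related probes and the ranking by dimmest probe were chosen after seeing the data. Tools were Python 3.11.15, pandas 2.3.3, numpy 2.4.6, scipy 1.17.1, R 4.3.3 and limma 3.58.1.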

Additional observations from a re-analysis of the deposited data

Results flagged for a closer look

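A control probe that the description above does not use, ETG05_66023, gave a signal above background. Over both arrays it is printed in 24 spots, and 16 of them were marked as well above background. Its median normalized log2 signal was -0.996 in pool 1 and -0.65 in pool 2, with a mean of -0.82, between the negative control spots and the 75th percentile of the sample probes. What this probe was designed to bind was not given in the sources used here.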

How the results depend on the processing

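No paired analysis was possible because a single group is described and no test was made. The detection mark moved the counts most. With the weaker mark, which asks only that a signal is positive and significant, 39033 probes and 13506 genes were detected, and with each pool alone 23206 to 23265 probes and 9539 to 9548 genes. The 25 brightest genes depended on which probe stands for a gene. By the median over all probes 10 of them stayed among the 25 brightest, by the median over detected probes 15, without probes related to at least 3 other genes 5, to at least 1 other gene 3, to at least 5 other genes 12, and by the dimmest of at least 3 probes 2. With each pool alone 24 stayed. The share of probes with a pool difference over 1 was 9.61% over all probes and 0.343% after normexp. With a pool left out, 15 to 19 lists lay above the detected share of all genes and 16 to 17 above their median signal, against 16 for each with both pools. Of 30 lists, 14 lay above the median of all genes and 8 below it in all 6 alternatives of the signal, and 8 crossed it. In all, 37 alternative values of these summaries stayed within 1.5 times the main value or, for Pearson's r, within a small fixed margin. Among the values of single genes and single lists, 215 moved beyond the spread between pools, beyond 1.5 times the share or across 0. The remaining 448 did not. A low signal limits what can be said of probes near background, and with 2 pools no spread between bulls can be given.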

Other observations

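Genes best known from oocytes and early embryos were detected about as often as genes at large, in 14 of 22 cases (63.6%, against 56.7%). ZP3, a glycoprotein of the egg coat, gave 3.61 and 3.62 on its single probe. TFAP2C, a transcription factor of early lineages, gave 2.48 and 2.55 on 1 of 2 probes, and ZAR1 gave 2.28 and 2.67 on the brightest of its 4 probes. Olfactory receptors, a large family with some members in the male germ line, had 69 of 158 genes detected (43.7%). This list holds 190 probes, and all genes with 1 probe were detected at 41.7%. By probes its share was 42.6%, against 38.4% for the probes of all annotated genes. OR8G5 led with 4.52 and 4.53 on the brightest of its 3 probes, which were all detected, the dimmest at a mean of 0.045. The brightest probe was related to 3 or more other genes in 45 of the 158 olfactory receptor genes. Without related probes 58 genes were detected, which is 36.7% of all 158 and 48.3% of the 120 that still had a probe. Secreted proteins of the epididymis and accessory glands had 12 of 18 detected (66.7%). NUCB2 led them with 3.96 and 3.95 on the brightest of its 3 probes, with the dimmest at a mean of -2.77.

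The share of detected probes differed between chromosomes, from 26.8% on chromosome 20 to 51.8% on chromosome 29. Across 30 chromosomes it had a Pearson's r of 0.829 and a Spearman's rho of 0.8995 with the median GC content of their probes, as a description over probes of the same 2 arrays. On the X chromosome 31.7% of 1072 probes were detected. By kind of annotation, probes named by a predicted RefSeq accession were detected most often, in 51.1% of 6569 cases, and clones, expressed sequence tags and other names least often, in 37.2% of 4264.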
